A study of Drosophila melanogaster with 4 samples.

Results

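Arm 2L, the left arm of the second chromosome of Drosophila melanogaster, carried 829 clusters of H4K16ac, the acetylated form of a lysine near the amino end of histone H4, in the combined list of an adult head ChIP-seq experiment. A cluster is a region that the authors called enriched. All enriched rows on 2L were taken and the 2 depleted rows were set aside, which left 829 of the 5728 clusters of the whole genome. The list of replicate 1 held 578 clusters on 2L of 4051 in all, and that of replicate 2 held 646 of 4431. The ChIP libraries came from nuclei of heads of wild-type Oregon-R flies, labelled as mixed adults with no sex given, and each had an input library of unprecipitated chromatin from the same strain as its control. Flies were kept in population cages and heads were collected with sieves, so each library pools many animals and all cell types of the head. The input libraries enter only through the authors' calls, and no list of their own was used here. The labels do not say whether the replicates came from separate collections of flies, and their spread may be that of the technique. Both ChIP libraries belong to 1 group, which leaves no contrast of groups to test, and the values below are descriptions, given for each replicate or as mean ± SD.

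H4K16ac is placed in flies by the acetyltransferase MOF. As part of the MSL dosage compensation complex MOF acetylates wide stretches of the male X, while on autosomes, as part of the NSL complex, it acts mainly at promoters of active genes. The modification loosens contacts between nucleosomes and is known as a mark of open, transcribed chromatin. On autosomes it is known mostly from short regions at active genes, with unmarked stretches between them.

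The 2L clusters were short and left most of the arm free. They covered 1.39 Mb of the 23.0 Mb of the arm in replicate 1, or 6.05%, and 1.65 Mb in replicate 2, or 7.16%. Density was 25.1 clusters per Mb in replicate 1 and 28.1 in replicate 2, a mean of 26.6 ± 2.09 per Mb on 2L, against 29.2 ± 2.79 on 3L, 33.0 ± 1.77 on 3R and 37.9 ± 2.01 on 2R (SD, n = 2 each). In each replicate 2L had the lowest density of these 4 arms. Replicate 1 put 2L at 25.1 clusters per Mb and 3L at 27.2, while replicate 2 put 2L at 28.1 and 3L at 31.2. The values of 2L and 3L overlapped only when different replicates were compared, and replicate 2 had more clusters on each of the 4 arms. The replicate values of 2R and 3R lay above both values of 2L. The order of arms was not tested. Replicate 2 had 1.12 times as many clusters on 2L as replicate 1 and 1.18 times the covered length. Over the whole genome it had 1.09 times as many. The lists hold no read numbers, so the depth of each library is unknown, and whether depth goes with this excess was not tested.

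Density varied severalfold along the arm. Of the 23 full bins of 1 Mb, the densest ran from 6 to 7 Mb and held 49 clusters in replicate 1 and 56 in replicate 2, over 12.7% and 14.5% of its length. It was followed by the bin at the telomere end, 0 to 1 Mb, with 45 and 46 clusters, and by the bin from 10 to 11 Mb, with 41 and 48. The combined list put 59, 62 and 60 clusters in these bins. As means of both replicates these 3 bins held 52.5 ± 4.95, 45.5 ± 0.707 and 44.5 ± 4.95 clusters (SD, n = 2), so the last 2 could not be ordered, while all 3 lay above the median bin of 24.5.

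The sparsest bin ran from 14 to 15 Mb and held 5 and 6 clusters in the replicates and 8 when they were combined. Clusters took up 1.22% of it in replicate 1 and 1.39% in replicate 2. The bin from 17 to 18 Mb held 9 clusters in each replicate and 14 in the combined list, and that from 15 to 16 Mb held 11 in each replicate and 14 in the combined list. In these sparse bins the replicates differed by at most 1 cluster. The densest bin thus held 9.8 times as many clusters as the sparsest in replicate 1 and 9.33 times in replicate 2, and 7.75 times separated the extremes in the combined list. The 5 densest bins held 35.6% of the clusters of the full bins in replicate 1 and 35.4% in replicate 2, and the 5 sparsest 10.2% and 9.44%.

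**Figure D1:**
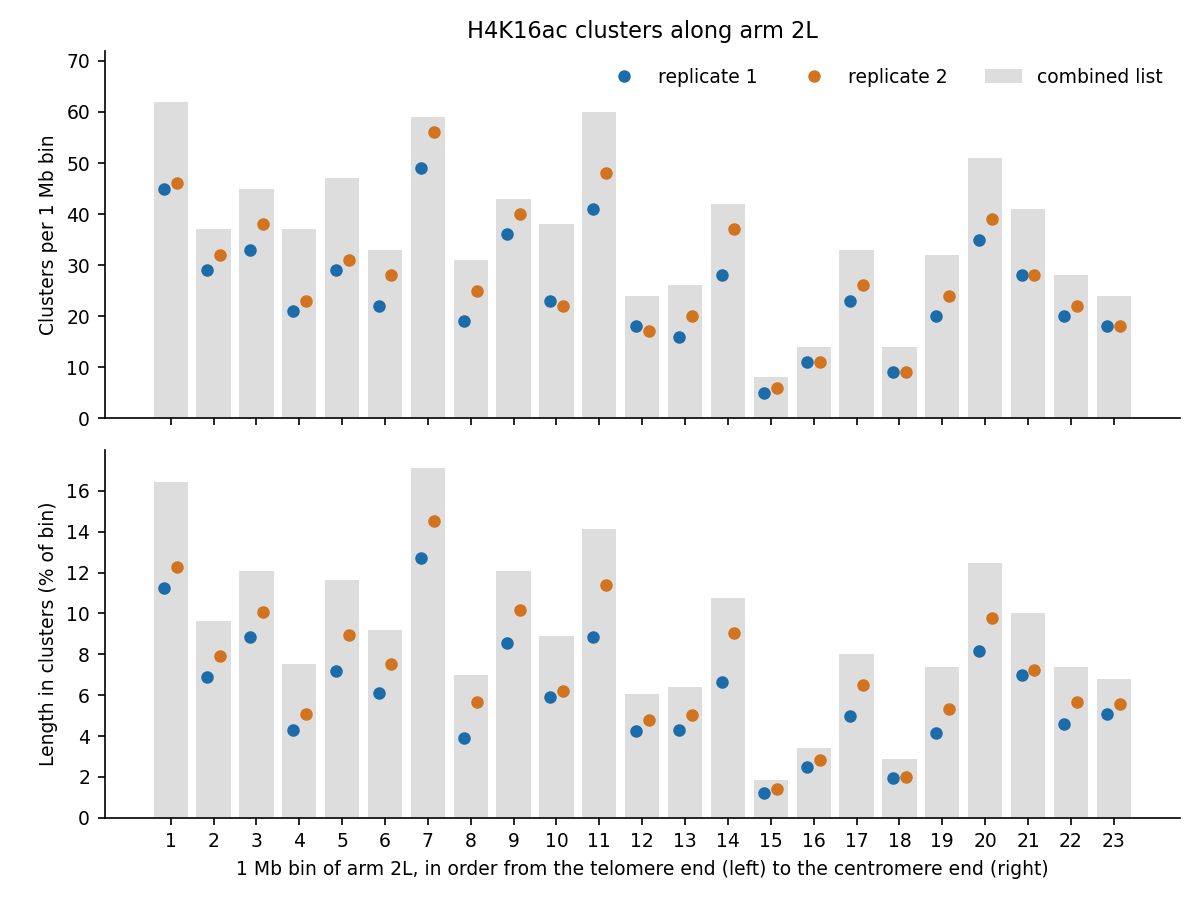
Number of H4K16ac clusters (upper panel) and percent of length in clusters (lower panel) in each full 1 Mb bin of 2L, ordered from the telomere end to the centromere end; points are the replicates and grey bars the combined list. The bin from 6 to 7 Mb (number 7) held 49 and 56 clusters in the replicates, and the bin from 14 to 15 Mb (number 15) held 5 and 6.

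Some neighbouring bins differed widely in count. The largest step between neighbouring bins in the replicates was at 7 Mb, where the count dropped to 19 clusters in replicate 1 and 25 in replicate 2 for the bin from 7 to 8 Mb, next to the densest bin with 49 and 56. In the combined list the largest step was at 11 Mb, with 24 clusters beyond it and 60 before it. Over the 22 pairs of neighbouring bins Pearson's r of their counts was 0.0031 and -0.036 in the replicates and 0.094 in the combined list, so at this scale a bin's count said little about that of the next. These pairs share bins and are given as a description. At a finer scale the highest count in any of 115 windows of 200 kb was in the window from 10200001 to 10400000 in all 3 lists, with 19 and 22 clusters in the replicates and 25 in the combined list. The median window held 4, 4 and 6. No cluster was centred in 17 windows of replicate 1, in 15 of replicate 2 and in 9 of the combined list.

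The 3 sparsest bins lie between 14 and 18 Mb, a stretch picked after its values were seen. It is not sparse throughout: the bin from 16 to 17 Mb held 23 clusters in replicate 1 and 26 in replicate 2, a mean equal to the median bin of 24.5. Its 4 Mb held 48 and 52 clusters in the replicates and 69 in the combined list, or 12, 13.0 and 17.3 per Mb, against 27.9, 31.2 and 40.0 per Mb on the rest of 2L. Clusters there covered 2.67% and 3.17% of the length in the replicates. Those present were of nearly ordinary size, with median widths of 1966 and 2055 bp in the replicates, against 2082 and 2185 bp on the rest of the arm. Their median score was 0.51 and 0.53, against 0.57 and 0.59. The score is the authors' value for a region, and its scale is not given in the sources used here.

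The stretches of 2L without a cluster in any of the 3 lists were longest in this same part of the arm. That part was picked for its few clusters, so its long empty stretches are no separate result. The longest ran from 15768925 to 16253218, a length of 484 kb. The next 3 ran from 16910832 to 17380764 (470 kb), from 14611764 to 15005168 (393 kb) and from 17591430 to 17963132 (372 kb), and the fifth lay nearer the centromere, from 21759429 to 22119898 (360 kb). Stretches of 100 kb or longer took up 3.19 of the 4 Mb between 14 and 18 Mb, or 79.9%. On the whole arm there were 60 such stretches with a total of 11.6 Mb, or 50.2% of 2L, against 42.9% of 3L, 37.6% of 3R and 29.7% of 2R. 8 stretches on 2L were 300 kb or longer, against 8 on 3L, 4 on 3R and 2 on 2R. An empty stretch means that no region was called there. The lists do not tell a stretch without the mark from one where few reads could be placed.

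The ends of the arm as assembled were not empty. The first cluster from the telomere lay from 20638 to 23062 in the combined list, with a score of 0.45, and was called in both replicates, at 20758 in replicate 1 and at 21060 in replicate 2. The last one lay from 22966401 to 22969789, in both replicates, and left 41.8 kb of the assembled arm towards the centromere without a cluster. Its score of 1.09 ranked 18 among the 829 combined clusters, and it ranked 32 of 578 by score in replicate 1 and 11 of 646 in replicate 2. The bin from 22 to 23 Mb, the last full bin at the centromere end of the assembled arm, held 18 clusters in each replicate. The median width of its clusters, 2936 and 3129 bp in the replicates, was above the 2069 and 2178 bp of the arm.

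Cluster density was higher towards the telomere. The arm was cut into 3 equal parts of 7.67 Mb. The distal part held 241 clusters in replicate 1 and 272 in replicate 2, the middle part 181 and 205, and the proximal part 156 and 169. Per Mb these were 33.4 ± 2.86, 25.2 ± 2.21 and 21.2 ± 1.20 clusters (SD, n = 2), and the order was the same in each replicate and in the combined list. The distal values of both replicates, 31.4 and 35.5 per Mb, lay above all middle and proximal ones. The middle and proximal parts were also apart, with at least 23.6 per Mb in the middle against at most 22.0 in the proximal part. Covered length followed the same order, at 8.47% ± 0.963, 6.19% ± 0.807 and 5.17% ± 0.583. The median width was 2144 ± 49.1 bp in the distal, 2087 ± 107 bp in the middle and 2106 ± 88.7 bp in the proximal part, within the spread between replicates, and the median score was 0.59 ± 0.014, 0.54 ± 0.020 and 0.55 ± 0.037. Within each replicate the distal score, 0.58 and 0.60, lay above that of the middle part, 0.52 and 0.55, and of the proximal part, 0.53 and 0.58. The distal median width was also the largest within each replicate, by a small amount. It was 2109 and 2178.5 bp, against 2011 and 2163 bp in the middle and 2043.5 and 2169 bp in the proximal part. These differences were not tested.

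Over the 23 full bins Spearman's rho between cluster number and order from the telomere was -0.46 in each replicate and -0.47 in the combined list. The bins of a list share its library and are no replicates, so rho is a description only. The fall was not even: the bins from 19 to 20 Mb and from 20 to 21 Mb in the proximal part held 37.0 and 28.0 clusters on average, both above the median bin. Without the 4 bins from 14 to 18 Mb rho was -0.43 ± 0.018 (SD, n = 2), in an alternative added once these bins had been seen. The same rho was -0.30 ± 0.0053 on 3L over 24 bins, -0.30 ± 0.032 on 2R over 21 bins and 0.13 ± 0.0065 on 3R over 27 bins, with order counted from the telomere on each arm. The order of the parts on 3L was as on 2L, also within each replicate. Distal, middle and proximal parts of 3L held 32.9 ± 2.77, 28.5 ± 3.20 and 26.2 ± 2.42 clusters per Mb. On 2R the middle part was the densest, at 40.1 ± 1.10, against 37.9 ± 2.21 in the distal and 35.7 ± 2.71 in the proximal part. On 3R the proximal part was the densest, at 36.9 ± 1.75 clusters per Mb, against 31.5 ± 2.13 in the distal part. Differences between arms were not tested.

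**Figure D2:**
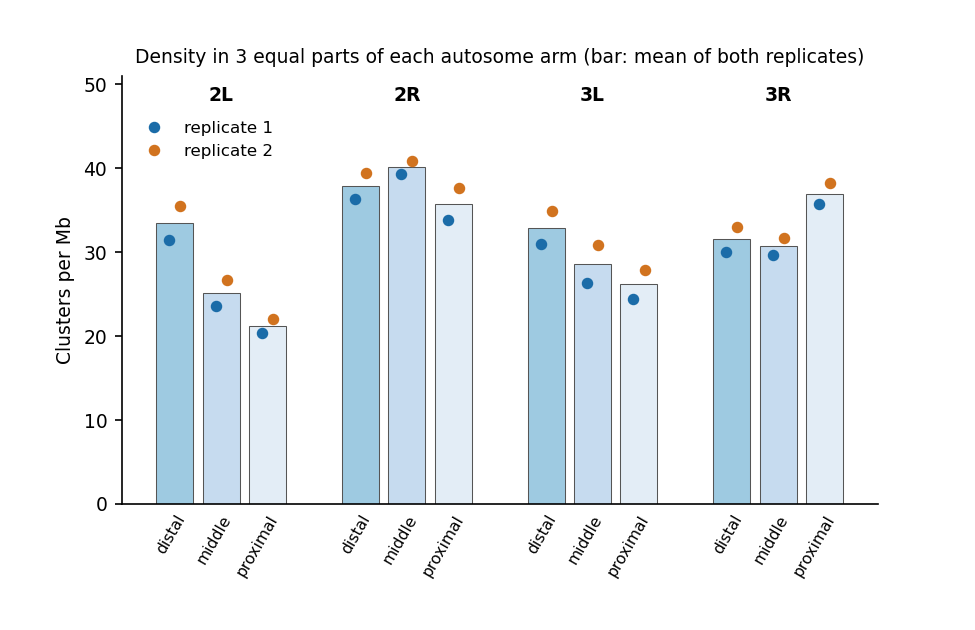
Clusters per Mb in the distal, middle and proximal part of 2L, 2R, 3L and 3R; bars are the means of both replicates and points the replicates. On 2L the means were 33.4, 25.2 and 21.2 per Mb, and on 3L they fell in the same order, at 32.9, 28.5 and 26.2 per Mb. On 2R the middle part was highest at 40.1 per Mb, and on 3R the proximal part at 36.9 per Mb.

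Most 2L clusters lay near another one, and a minority of long gaps held most of the free length. The median gap to the next cluster was 8065 and 6887 bp in replicates 1 and 2, while the mean was 37358 and 33024 bp, 4.63 and 4.80 times the median. Gaps were spread widely, from a lower quartile of 2415 bp to an upper quartile of 34749 bp in replicate 1, and likewise from 2117 to 27951 bp in replicate 2. Gaps of 5 kb or less made up 229 of 577 in replicate 1 and 282 of 645 in replicate 2, or 39.7% and 43.7%. Gaps of 100 kb or more numbered 59 and 60 and together spanned 13.3 and 13.0 Mb, or 57.7% and 56.7% of the arm. The mean of both replicates for this share was 57.2% ± 0.743 on 2L, against 50.3% ± 1.03 on 3L, 46.8% ± 2.83 on 3R and 35.2% ± 1.55 on 2R (SD, n = 2 each), and both values of 2L lay above those of the other 3 arms. The median gap on 2L, 7476 ± 833 bp, lay between those of 3L, 8544 ± 1019 bp, and of 3R and 2R, 7045 ± 318 and 6957 ± 401 bp. This order held within each replicate. In replicate 1 the values were 9264 bp on 3L, 7270 bp on 3R and 7241 bp on 2R. In replicate 2 they were 7823, 6820 and 6673.5 bp. Across replicates the values of 2L overlapped those of each of these arms, and the differences were not tested.

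**Figure D3:**
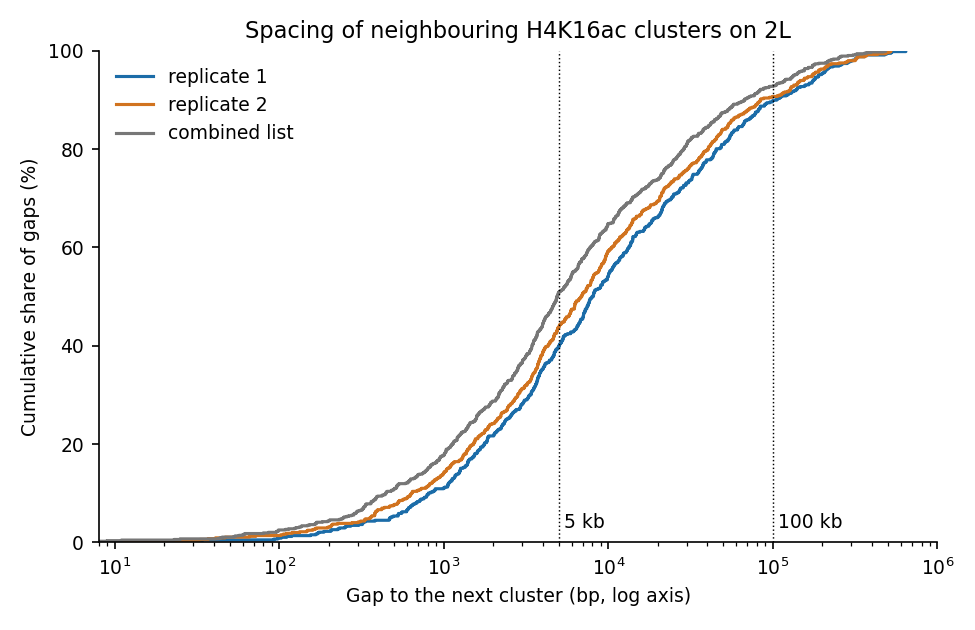
Cumulative share of the gaps between neighbouring 2L clusters up to a given length (bp, log axis) in replicate 1, replicate 2 and the combined list; dotted lines mark 5 kb and 100 kb. At 5 kb the curves stand at 39.7% and 43.7% in the replicates, and 59 and 60 gaps lie at or beyond 100 kb.

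Clusters were counted as a group where 3 or more followed each other with gaps of at most 5 kb. By this rule 206 of 578 clusters fell into 54 groups in replicate 1, or 35.6%, and 273 of 646 into 70 groups in replicate 2, or 42.3%. The mean share was 39.0% ± 4.68 on 2L, against 34.3% ± 6.59 on 3L, 40.9% ± 0.333 on 3R and 41.2% ± 0.906 on 2R (SD, n = 2 each), and the values of 2L, 35.6% and 42.3%, enclosed or overlapped those of each other arm. Within each replicate 2L lay above 3L, which had 29.6% in replicate 1 and 39.0% in replicate 2. Against 3R and 2R the order differed between the replicates. The combined list, which has more clusters, had 416 of 829 in 97 groups, which spanned 1.75 Mb or 7.61% of the arm. Of these groups 40 had 3 clusters, 25 had 4, and 32 had 5 or more. The bin from 10 to 11 Mb held 10 of them and the bin from 15 to 16 Mb held 0. A joining gap of 2 kb left 14.7% ± 1.39 of the replicates' clusters in groups and one of 10 kb put 60.7% ± 5.40 there.

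The largest group of the combined list had 13 clusters from 243167 to 296353, close to the telomere, and clusters covered 65.9% of its 53.2 kb. Replicate 1 had 6 clusters over 37.5% of this region and replicate 2 had 10 over 54.6%, and 6 of the 13 combined clusters were found in both. The other 4 named groups had 8 clusters each. That from 1147188 to 1185612 was the one the replicates agreed on most: replicate 1 had 9 clusters there, replicate 2 had 8, and all 8 combined clusters were found in both. It borders an empty stretch of 306 kb, from 1185613 to 1491795. The group from 3012572 to 3041498 had 5 clusters in each replicate, and that from 6642395 to 6676600, in the densest bin, had 5 in replicate 1 and 8 in replicate 2. The group from 9736650 to 9764738 rested on few replicate calls, with 2 clusters in each replicate over 19.4% and 20.0% of its length, against 8 over 50.0% in the combined list.

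Grouped clusters were slightly wider and higher in score than the others. In replicate 1 their median width was 2149 bp, against 2004 bp for clusters outside groups, and their median score 0.60, against 0.53. In replicate 2 the values were 2309 against 2089 bp and 0.63 against 0.56. The ranges overlapped widely, with quartiles of the score from 0.46 to 0.77 for grouped clusters and from 0.40 to 0.69 for the others in replicate 1. At the other extreme, 74 clusters of replicate 1 and 70 of replicate 2 were more than 20 kb from any other. Their median score was 0.52 and 0.53, and their median width 2007 and 2013 bp.

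Width on 2L stayed within a narrow range. In replicate 1 the median was 2069 bp with quartiles of 1744 and 2783 bp, and in replicate 2 it was 2178 bp with quartiles of 1852 and 2960 bp. No cluster was narrower than 1307 and 1303 bp in replicates 1 and 2 or than 1001 bp after they were combined. This lower limit is not particular to 2L. On 2R, 3L, 3R and X the narrowest cluster measured 1301 to 1303 bp in the replicates and 1001 bp in the combined list. Clusters of 5 kb or more numbered 19 and 27 in the replicates and 44 in the combined list, where they made up 5.31% of clusters and 13.4% of the covered length. The widest lay from 6958978 to 6969429, in the densest bin, and measured 10.5 kb with a score of 0.80. Replicate 1 called it as 1 cluster of 10237 bp, and replicate 2 split it in 2, the wider of 5596 bp. The next widest ran from 11994150 to 12002874 (8.73 kb, score 0.83), from 16714021 to 16722348 (8.33 kb, score 0.74), from 6041727 to 6049982 (8.26 kb, score 0.93) and from 125798 to 134035 (8.24 kb, score 0.73). Each of these 5 was 1 cluster in one replicate and 2 in the other. None ranked higher than 37 by score among the 829 combined clusters.

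The highest scores belonged to other clusters. The highest in the combined list was 1.46, for the cluster from 2747111 to 2753708 of 6598 bp, and the second, 1.37, belonged to the cluster from 2764334 to 2771680 of 7347 bp, which lies close by in the same bin. In replicate 1 the order of this pair was the other way, with scores of 1.34 and 1.45, and in replicate 2 it was as in the combined list, with 1.57 and 1.31. The next 3 were of ordinary width: from 3455788 to 3458681 (2894 bp, score 1.31), from 4849123 to 4852109 (2987 bp, score 1.31) and from 8996673 to 8999128 (2456 bp, score 1.26). All 5 were 1 unbroken cluster in each replicate that covered at least 96.6% of the combined one, and each ranked among the first 8 of the arm by score in both replicates. All 5 lay in the 9 Mb nearest the telomere, a limit set after their positions were seen. The median position of all 829 combined clusters was 9.75 Mb, so a large share of them lay there too. Over all clusters Spearman's rho of score with position was -0.099 and -0.035 in the replicates and -0.071 in the combined list.

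Width and score rose together over all 2L clusters, with Spearman's rho of 0.73 across the 578 clusters of replicate 1 and 0.72 across the 646 of replicate 2. The relation was not the same at all widths, as the plot of width and score shows. Among clusters of 1.6 to 2.3 kb, a class chosen after seeing that plot, rho was 0.80 and 0.83 in the replicates (n = 271 and 287) and 0.82 in the combined list (n = 296). Below 1.6 kb it was negative, at -0.30 (n = 95), -0.23 (n = 73) and -0.51 (n = 179). From 2.3 kb upwards it was close to 0, at -0.019 (n = 212) and 0.073 (n = 286) in the replicates and 0.15 (n = 354) in the combined list. The same 3 classes gave rho of 0.76 to 0.85 for 1.6 to 2.3 kb in the replicates on 2R, 3L and 3R. All points of a list share its library and caller, and clusters are not independent, so no p is given.

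**Figure D4:**
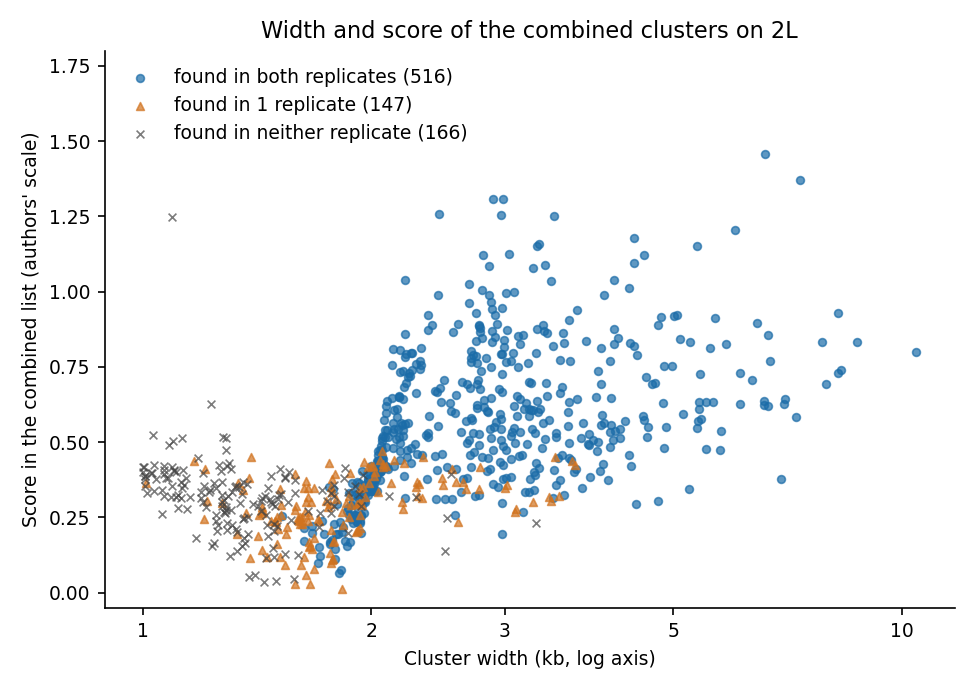
Score (authors' scale) against width (kb, log axis) for the 829 combined 2L clusters, marked by the replicates in which they were found. Clusters of 1.6 to 2.3 kb form a steep narrow band (rho 0.82), wider ones scatter widely, and the 166 clusters found in neither replicate lie mostly at the narrow end.

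The replicates placed most 2L clusters at the same positions. Of the clusters of replicate 1, 538 of 578 (93.1%) overlapped replicate 2 by 1 bp or more, and of those of replicate 2, 528 of 646 (81.7%) overlapped replicate 1. Requiring each partner to share 50% of its length left 87.4% and 78.2%. The Jaccard index, shared over total covered length, was 0.734 on 2L, against 0.714 on 3L, 0.745 on 3R and 0.746 on 2R. Clusters of replicate 2 without a partner numbered 118, against 40 in replicate 1. They were narrow and low, with median widths of 1662 and 1520 bp in replicates 2 and 1, against 2379 and 2110 bp for shared clusters. Their median scores were 0.46 and 0.49, against 0.64 and 0.57. Of the 118, 54 lay in the distal, 36 in the middle and 28 in the proximal part, the order in which all clusters fall.

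A total of 500 clusters matched one to one. Across them Pearson's r of the score was 0.845 and Spearman's rho 0.817, and for width they were 0.901 and 0.810. Midpoints were a median of 64.3 bp apart, and 465 of the 500 (93%) were within 500 bp. The matched calls overlap, so close midpoints are in part built in. Replicate 2 gave the wider call in 383 pairs (76.6%), by a median of 120 bp, so its larger covered length on 2L came with both more clusters and wider ones. In the 1 Mb bins the replicates kept nearly the same profile. Pearson's r of the counts over the 23 full bins was 0.981 and Spearman's rho 0.965. Replicate 2 had more clusters in 17 bins, as many in 4 and fewer in 2, and its covered length was higher in all 23 bins. The Jaccard index of single bins ranged from 0.56 in the bin from 7 to 8 Mb to 0.829 in that from 9 to 10 Mb, with a median of 0.749.

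**Figure D5:**
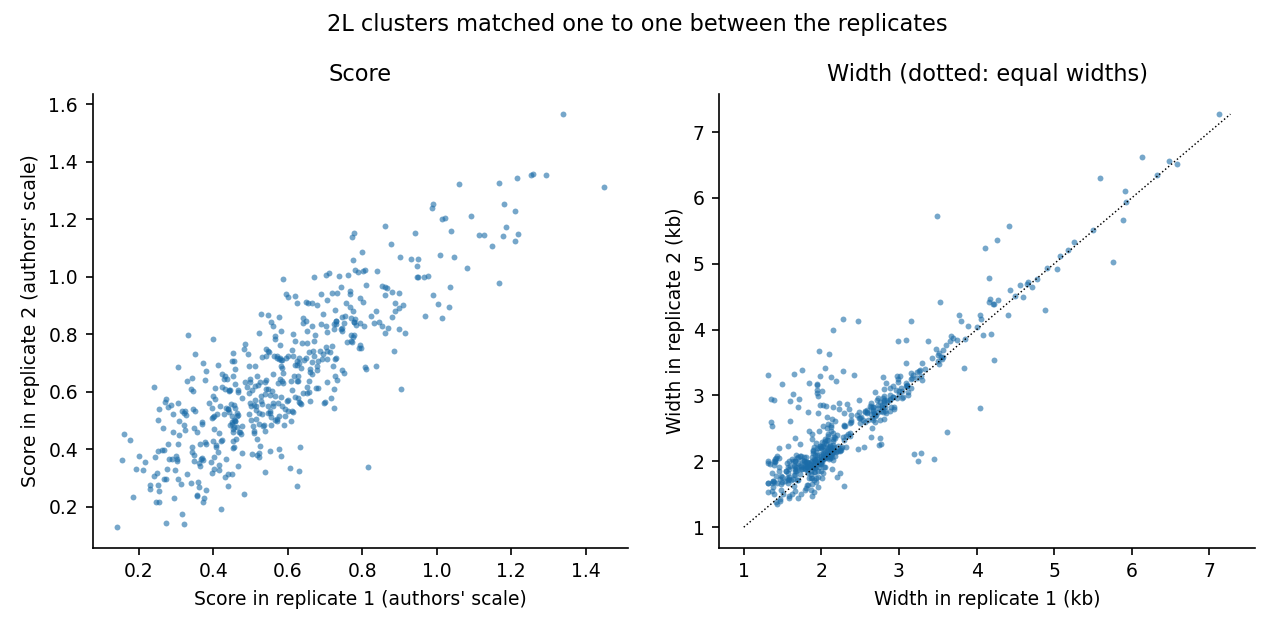
Score (left, authors' scale) and width (right, kb) in replicate 2 against replicate 1 for the 500 2L clusters matched one to one; the dotted line marks equal widths. Scores follow each other (rho 0.817), and 383 of the 500 points lie above the line of equal width.

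Of the 829 combined clusters on 2L, 516 (62.2%) overlapped a cluster in both replicates, against 55.2% of the combined clusters of all sequences and 63.1% of those of 2R, 3L and 3R, a share near that of the other large autosome arms. The 516 held 75.7% of the covered length. A further 36 overlapped replicate 1 alone, 111 replicate 2 alone, and 166 (20.0%) neither, against 25.9% over all sequences and 19.5% on 2R, 3L and 3R. Support followed score and width. The list was cut into 4 equal classes by score. In the class of highest score 205 of 207 clusters were found in both replicates, against 56 of 208 in the class of lowest score. In 4 such classes by width, 196 of 207 were found in both among the widest, against 4 of 208 among the narrowest. The combined list comes from these same replicates, so overlap with them is no independent support. A wide cluster also meets an overlap of 1 bp more easily. Of the 88 combined clusters narrower than 1303 bp, 0 were found in both. How much of the contrast by width comes from easier overlap, or from the lower narrowest width of the combined list, was not tested. Of the 166 found in neither, 82 (49.4%) were narrower than any replicate cluster on 2L, 1303 bp. Of the 166, 118 (71.1%) lay within 5 kb of another combined cluster, against 397 of 516 (76.9%) of those found in both, a difference that was not tested.

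A single exception among the clusters found in neither replicate, named after its value was seen, lay from 19620083 to 19621173. It was 1091 bp wide with a score of 1.25, while the next highest score among the 166 was 0.63. The nearest cluster of either replicate was 32.1 kb away, and the nearest combined one 1089 bp. The combined list also named 2 depleted regions on 2L, from 5099061 to 5100755 (score -0.11) and from 7408688 to 7410263 (score -0.024), which lay 1328 and 1654 bp from the nearest combined cluster. Each replicate list had 0 depleted regions on 2L.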

How the data were processed

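ChIP-seq with an antibody against H4K16ac was carried out on Drosophila melanogaster head nuclei, with 2 ChIP and 2 input samples. Per the submitters' processing notes, alignment used Bowtie 0.12.7. The authors deposited 1 list of regions per ChIP replicate and 1 combined list, on FlyBase release 5 with 1-based coordinates, per the file headers. Each region has a score set by the authors. Not given in the sources used here are its scale, the region caller with its thresholds and filters, and the way of combining replicates. Region calling limits what can be read: cluster numbers, widths and gaps depend on thresholds and smoothing, and without read numbers in the lists the depth per library is unknown and counting intervals cannot be set. Scores were compared mainly within a list. Means over the replicates, the correlation of matched scores and the alternatives also set scores of different lists side by side. No score difference between lists is read as a change of the mark.

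Rows named as enriched were kept and depleted rows set aside. Arm lengths came from the headers. Clusters were counted in the 1 Mb bin of their midpoint, and the last, incomplete bin held none. A gap is the number of bases between neighbouring clusters, and overlap of 1 bp counted as shared. Named regions were the 5 widest and 5 highest-scoring combined clusters found in both replicates, the 3 densest and 3 sparsest bins, the 5 longest stretches empty in all 3 lists, the 5 largest groups and the outermost clusters; any other is said to be chosen after its values were seen. The arm and its measures were chosen with earlier results of these data known. The gene table at hand is on release 6, so no gene or sequence was assigned to coordinates of release 5. The code of the measures was checked on simulated lists, and 11 of 11 known quantities were recovered. These lists were simpler than those of 2L, mostly regularly spaced clusters of 1 width. A failure would have stopped the run, so this is a check of the code only. Tools were Python 3.11.15 with pandas 2.3.3, numpy 2.4.6, matplotlib 3.10.9 and scipy 1.17.1.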

Additional observations from a re-analysis of the deposited data

How the results depend on the processing

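Of 50 values under alternatives, 23 stayed within the spread between replicates (for cluster numbers within 1.5 times, for the share found in both within its 95% Wilson interval), 27 moved beyond it and 0 changed sign. Except for cluster numbers and the share found in both, a value with a replicate left out lies within that spread by construction. Of these measures only the rank correlation could change sign. The Wilson interval treats clusters as independent, which they are not, so it serves as a cut-off only. The combined list moved the covered share of 2L to 9.09% (6.61% as the mean of both replicates), the median gap to 4878 bp (7476 bp), the share in groups to 50.2% (39.0%), the variation of counts over bins (SD divided by mean) to 0.401 (0.446), the rank correlation with order from the telomere to -0.47 (-0.46) and the median score to 0.41 (0.57). The scale of the score is not given for any list, so the lower median score is not read as a change of the mark. Keeping the upper 50% of clusters by score, which selects on the score, left 306 of 612 clusters, a covered share of 4.00%, a median gap of 18579 bp, 23.0% in groups, a variation of 0.517, a rank correlation of -0.48, a median width of 2725 bp (2123 bp), a median score of 0.74 and 89.4% of combined clusters found in both replicates (62.2%); the Jaccard index became 0.655. Merging clusters less than 500 bp apart gave a median gap of 8633 bp and 33.2% in groups, and joining gaps of 2 and 10 kb gave 14.7% and 60.7% in groups. Bins of 500 kb and 2 Mb gave a variation of 0.578 and 0.318. The rank correlation with order from the telomere was -0.40 without the proximal 2 Mb, -0.43 with covered length in place of number, and -0.43 without the 4 bins from 14 to 18 Mb. Leaving out a replicate left 66.6% to 75.6% of combined clusters overlapping the other, a weaker demand than overlap with both. Beyond fewer or more clusters, which each selection or merging brings by construction, the cause of these shifts was not tested. No paired analysis was possible because lists of the ChIP group alone were used and no result compares groups of samples. Unknown depth limits every count of clusters.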
